A study of Mus musculus with 12 samples.

Results

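The RNA of 10 genes that build the extracellular front of transforming growth factor beta (TGF-beta) signalling was followed through the mouse heart after myocardial infarction (MI) and weekly prednisone. They are the 3 ligands *Tgfb1*, *Tgfb2* and *Tgfb3*, the 3 receptors *Tgfbr1*, *Tgfbr2* and *Tgfbr3*, and the 4 latent TGF-beta binding proteins *Ltbp1* to *Ltbp4*. The genes were chosen by name, and all 10 were found among the 33641 gene symbols of the table and among the 13158 genes that passed the filter on low values.

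TGF-beta is secreted as an inactive complex in which the mature growth factor stays wrapped in its own propeptide. Latent TGF-beta binding proteins tie that complex to the extracellular matrix, where integrins, proteases and thrombospondin release it. The free ligand brings together the type II receptor kinase TGFBR2 and the type I receptor kinase TGFBR1, which phosphorylates Smad transcription factors, while the co-receptor TGFBR3 (betaglycan) presents ligand, TGF-beta 2 above all. In the injured heart the pathway is best known for turning fibroblasts into matrix-producing myofibroblasts and for scar formation.

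Each of 12 libraries came from the myocardium of 1 male wild-type C57BL/6 mouse, and each of 4 groups held 3 mice. Mice had a sham operation or MI surgery, and received vehicle or prednisone, a synthetic glucocorticoid. Prednisone was injected into the peritoneum at 1 mg/kg once a week at lights-on for 6 weeks, beginning 2 weeks after surgery, and hearts were sampled 24 hours after the last dose. The labels give the age as about 16 weeks, and the treatment protocol as about 10 weeks. The groups are called sham vehicle, sham prednisone, MI vehicle and MI prednisone, and no allele was altered in any of them. The labels do not say which region of the infarcted heart was taken.

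Values are TPM, an abundance per transcript length scaled to the same total in every library, so that levels can be compared between genes. TPM carries no read depth, so precision rests on the spread between 3 mice. The 6 cardiomyocyte markers, which define the labelled tissue, summed to 20924 to 34966 TPM. MI vehicle replicate 3 stood apart from the other 11 libraries. Its 5 lymphocyte markers summed to 176.7 TPM against 1.68 to 12.5 TPM elsewhere, and its median gene stood 0.74 above the sham vehicle mean on the log2 scale, so results that rest on it are also given without it. The MI prednisone libraries differed from the other 9 in how TPM were spread along genes, as described with the transcripts. The labels give no library batch, and a batch that coincided with a group cannot be told apart from it. In bulk tissue, fewer cells of a type and less RNA per cell cannot be told apart.

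Infarction under vehicle raised 8 of the 10 genes, and prednisone lowered 8 of the 10 in infarcted hearts. A gene was called at a Benjamini-Hochberg adjusted p under 0.05 in limma, fitted to log2(TPM + 1) over all genes and all 12 mice. In MI vehicle against sham vehicle the 8 calls stood beside 15.1% of all genes called higher and 0.904% called lower, and the median change of the 10 genes was 0.90 against 0.39 for all genes. In prednisone against vehicle after MI the 8 calls stood beside 34.9% of all genes called lower and 2.5% called higher, with medians of -0.84 and -0.41. These comparisons share the MI vehicle mice. All 3 MI vehicle hearts lay above all 3 sham vehicle hearts for each of the 8, as they did for 40.8% of all genes. In MI against sham under prednisone 1 gene was higher (2.73% of all genes) and 2 were lower (14.1%). In sham hearts none of the 10 was called with prednisone (0.0532% of all genes were called higher and 0.0608% lower), with changes from -0.24 to 0.17. That comparison called 15 of 13158 genes in all, and 469 had an unadjusted p under 0.05 in limma.

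Both counts of 8 depended on how libraries were scaled. Rescaling each library by its median ratio to the mean profile took the median change of all genes to 0.00 in MI against sham under vehicle and to -0.01 in prednisone against vehicle after MI. It left 5 of the 10 called higher beside 3.26% of all genes in the first, and 3 called lower beside 13.8% of all genes in the second. Of all genes called, the share that was higher went from 94.3% to 49.9% in the first comparison, from 6.69% to 51.0% in the second and from 16.2% to 42.4% in MI against sham under prednisone. Rescaled values are therefore given with the 10 genes. When limma was fitted to the 6 vehicle mice alone, none of the 10 genes was called in MI against sham (lowest adjusted p = 0.0684, for *Tgfb3*; that fit called 2 of 13158 genes, and 3370 had an unadjusted p under 0.05). Without sham vehicle replicate 1 or replicate 3, *Tgfb3* and *Ltbp2* alone of the 10 were called there, beside 160 and 117 of all genes called higher.

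**Figure D1:**
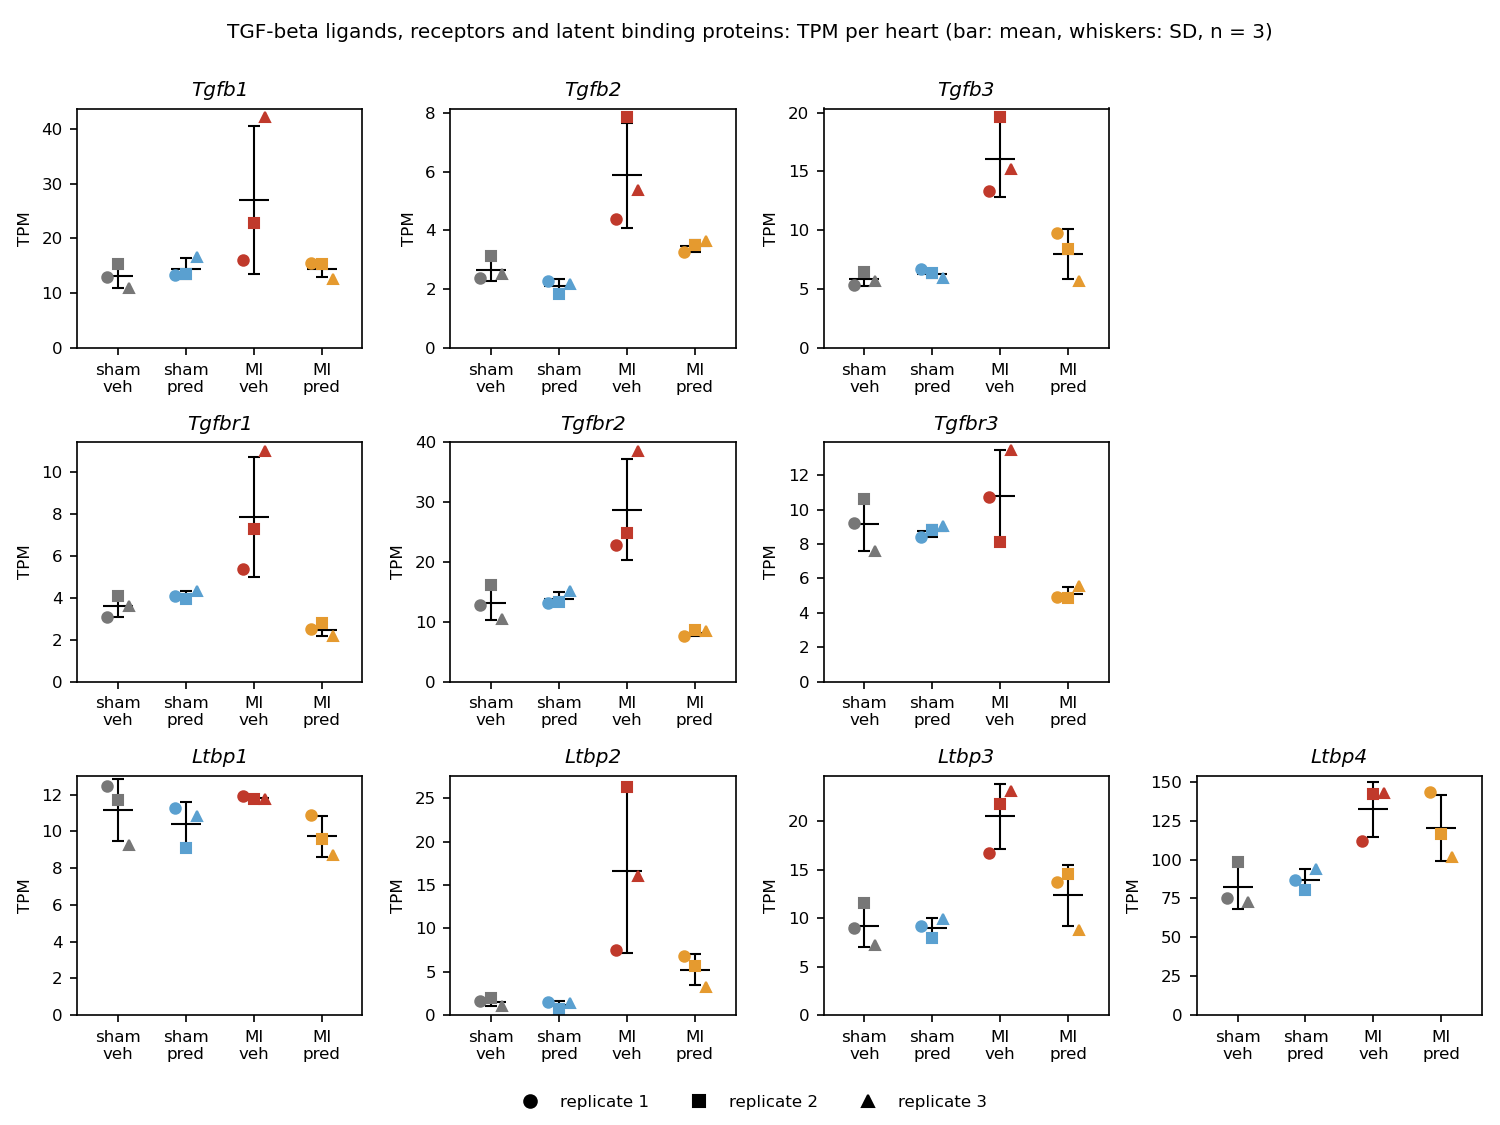
TPM of the 10 genes in each heart, by group (x axis) on a linear y axis that starts at 0 in every panel; symbols are mice, the bar is the mean and whiskers are the SD of 3 mice. *Ltbp2* lay under 2 TPM in all 6 sham hearts and between 3.29 and 26.3 TPM in the 6 infarcted hearts, and the 3 receptors were lowest in MI prednisone.

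Among the ligands, *Tgfb1*, the isoform most studied in fibrosis, was the most abundant in every group. Its gene lies on chromosome 7 (25687002 to 25705077, GRCm38, plus strand). It measured 13.0, 15.3 and 10.9 TPM in sham vehicle and 13.3, 13.5 and 16.7 TPM in sham prednisone. MI vehicle held 16.1, 22.9 and 42.1 TPM, and MI prednisone 15.6, 15.3 and 12.6 TPM. All 3 MI vehicle hearts exceeded all 3 sham vehicle hearts, but replicate 3 lay far above the other 2, and MI prednisone overlapped both sham groups. The rise with MI under vehicle was 0.90 on the log2 scale (SE 0.27, limma adjusted p = 0.0471), and the fall with prednisone after MI was -0.75 (SE 0.27, adjusted p = 0.0486). Without MI vehicle replicate 3 neither was called, with changes of 0.53 (limma adjusted p = 0.092) and -0.39 (0.124). After median-ratio rescaling they were 0.46 (0.0858) and -0.31 (0.153).

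*Tgfb3*, the isoform known from palate and scar-free repair, showed the steepest rise of the 3 ligands (chromosome 12, 86056745 to 86079041, minus strand). Sham vehicle hearts held 5.31, 6.47 and 5.69 TPM, and sham prednisone hearts 6.70, 6.33 and 5.96 TPM. MI vehicle hearts held 13.3, 19.6 and 15.2 TPM, and MI prednisone hearts 9.80, 8.45 and 5.66 TPM. MI vehicle stood clear of every other heart, and MI prednisone replicate 3 lay within the sham range. The log2 change with MI under vehicle was 1.31 (SE 0.19, limma adjusted p = 0.00536) and remained called at 0.89 after rescaling (limma adjusted p = 0.0378). Prednisone after MI gave -0.94 (SE 0.19, limma adjusted p = 0.00414), which was -0.51 and not called after rescaling (0.0922).

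*Tgfb2*, the ligand that depends most on betaglycan, was the least abundant ligand (chromosome 1, 186622792 to 186705989, minus strand). It measured 2.37, 3.12 and 2.51 TPM in sham vehicle and 2.28, 1.85 and 2.19 TPM in sham prednisone. It measured 4.40, 7.85 and 5.37 TPM in MI vehicle and 3.26, 3.49 and 3.65 TPM in MI prednisone. Here all infarcted hearts exceeded all sham hearts, with MI prednisone between the sham hearts and MI vehicle. The change with MI was 0.88 under vehicle (SE 0.18, limma adjusted p = 0.0157) and 0.53 under prednisone (SE 0.18, adjusted p = 0.0702). Rescaling swapped the calls, with 0.52 under vehicle (limma adjusted p = 0.113) and 0.60 under prednisone (0.0412). Prednisone after MI gave -0.59 (SE 0.18, limma adjusted p = 0.0259), but -0.22 after rescaling (0.424) and 0.02 once a trend with transcript length was removed (0.959).

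The 3 receptors shared a second feature: their lowest values of the study were in MI prednisone. There all 3 lay below every sham prednisone heart, as 32.2% of all genes did, while *Tgfb2*, *Ltbp2* and *Ltbp4* lay above, as 12.9% did. For *Ltbp4* this held only for the sum over its transcripts. Its main coding transcript, Ltbp4-205, lay below, at 52.9 to 66.3 TPM in MI prednisone and 71.3 to 81.9 TPM in sham prednisone. *Tgfbr2*, the receptor that binds ligand first (chromosome 9, 116084293 to 116175360, minus strand), measured 12.8, 16.1 and 10.5 TPM in sham vehicle and 13.1, 13.3 and 15.1 TPM in sham prednisone. MI vehicle held 22.9, 24.9 and 38.5 TPM, and MI prednisone 7.53, 8.59 and 8.40 TPM. Every MI vehicle heart was above and every MI prednisone heart below all 6 sham hearts. MI raised it by 1.06 under vehicle (SE 0.19, limma adjusted p = 0.0113) and lowered it under prednisone, by -0.69 (SE 0.19, adjusted p = 0.034). Both were called after rescaling, at 0.62 (limma adjusted p = 0.0203) and -0.61 (0.0037). The call under prednisone was lost on leaving out any 1 of the 6 prednisone mice. The prednisone effect after MI was -1.66 (SE 0.19, limma adjusted p = 0.000593), the largest fall among the 10 genes. It kept its call after rescaling (-1.22), after the length correction (limma adjusted p = 0.000603) and without MI vehicle replicate 3 (-1.44). Under prednisone the fall with MI became -0.32 after the length correction and was not called (limma adjusted p = 0.0707).

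*Tgfbr1*, the kinase that phosphorylates Smad2 and Smad3 (chromosome 4, 47353222 to 47414931, plus strand), moved in the same directions at lower levels. It measured 3.09, 4.07 and 3.60 TPM in sham vehicle and 4.08, 3.97 and 4.34 TPM in sham prednisone. MI vehicle held 5.37, 7.28 and 11.0 TPM, and MI prednisone 2.49, 2.79 and 2.15 TPM. As with *Tgfbr2*, the 2 infarcted groups lay on opposite sides of all sham hearts. The change with MI under vehicle was 0.91 (SE 0.20, limma adjusted p = 0.02), and prednisone after MI gave -1.31 (SE 0.20, adjusted p = 0.00152). Both stayed called after rescaling, at 0.52 and -0.92, and after the length correction, at 0.50 and -0.67. Under prednisone MI gave -0.56 (SE 0.20, limma adjusted p = 0.0842), which was called after rescaling (-0.50, 0.00858) and not after the length correction (-0.22, 0.224).

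*Tgfbr3*, the betaglycan gene (chromosome 5, 107106570 to 107289629, minus strand), was the receptor without a call for MI under vehicle. Sham vehicle hearts held 9.21, 10.6 and 7.57 TPM and sham prednisone hearts 8.41, 8.83 and 9.08 TPM. MI vehicle hearts held 10.8, 8.12 and 13.5 TPM, which overlapped sham, and MI prednisone hearts 4.93, 4.84 and 5.53 TPM, below all others. The MI change under vehicle was 0.20 (95% interval -0.17 to 0.58, limma adjusted p = 0.348) and turned to -0.21 after rescaling. Under prednisone MI gave -0.68 (SE 0.17, limma adjusted p = 0.0208; kept only without MI prednisone replicate 3 when 1 of the 6 mice was left out), and prednisone after MI gave -0.93 (SE 0.17, adjusted p = 0.00291). After rescaling these were -0.61 and -0.51 and both stayed called (limma adjusted p = 0.00974 and 0.0164). After the length correction they were -0.27 and -0.25, and neither was called (limma adjusted p = 0.152 and 0.17).

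*Tgfbr2* has 2 transcript models in the table, and they parted in MI prednisone. Tgfbr2-202 holds a cassette exon of 75 bases at chr9:116158271-116158345 that Tgfbr2-201 lacks, and its 3′ end runs 4636 bases further. The exon encodes an insert in the extracellular part of the longer receptor form. It is printed here because it is the coding difference between the models, with the exon in capitals and 30 bases of the neighbouring exons in lower case, 5′ to 3′ on the minus strand, from the GENCODE M21 transcripts (GRCm38).
Tgfbr2-202 cassette exon: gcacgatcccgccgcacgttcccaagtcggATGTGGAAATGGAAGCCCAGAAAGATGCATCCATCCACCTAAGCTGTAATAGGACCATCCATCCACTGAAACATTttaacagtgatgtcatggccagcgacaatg

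**Figure D2:**
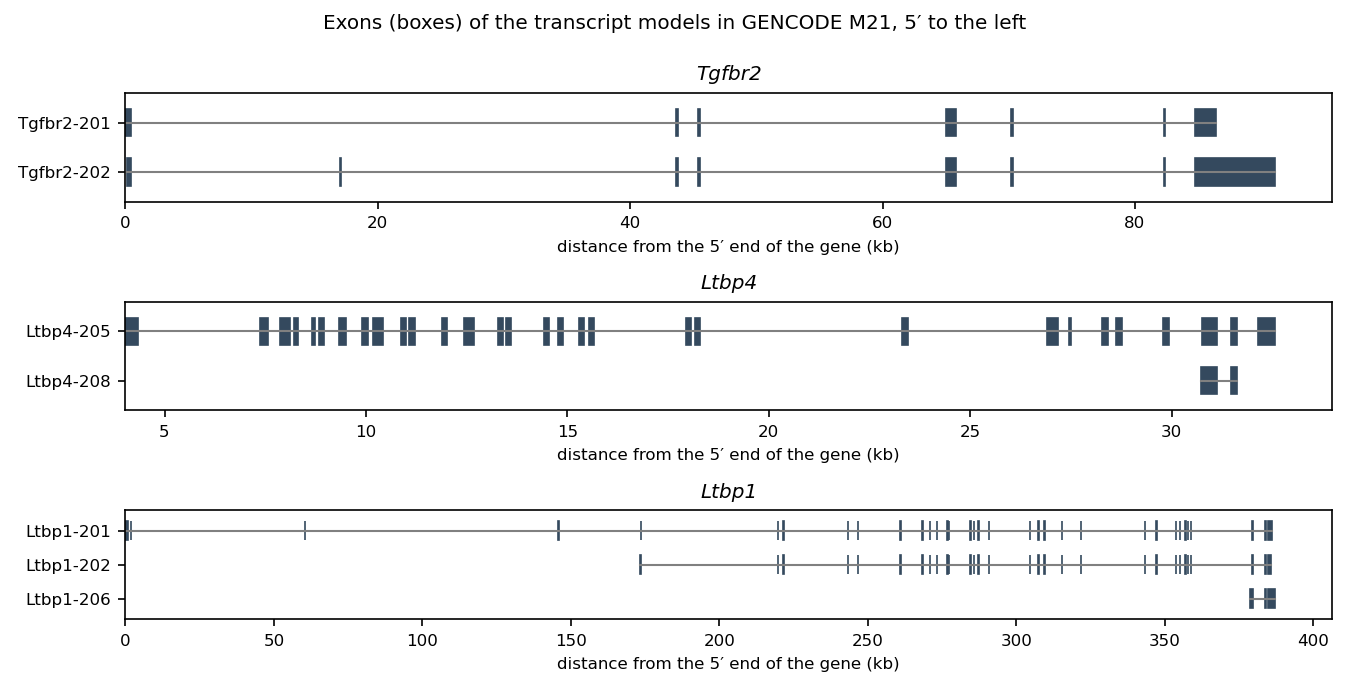
Exons (boxes) and introns (lines) of transcript models of *Tgfbr2*, *Ltbp4* and *Ltbp1*, with distance from the 5′ end of the gene in kb on the x axis and 1 model per row. Tgfbr2-202 shows the additional exon near 17 kb and the longer last exon, and Ltbp4-208 and Ltbp1-206 cover the 3′ part of their genes.

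The short-tailed Tgfbr2-201 held 15.8, 17.0 and 27.0 TPM in MI vehicle and 0.938, 2.26 and 3.55 TPM in MI prednisone, while both sham groups held 6.15 to 11.3 TPM. The long-tailed Tgfbr2-202 held 7.10, 7.90 and 11.5 TPM in MI vehicle and 6.59, 6.33 and 4.85 TPM in MI prednisone. Tgfbr2-201 thus fell below every sham heart and Tgfbr2-202 did not. In limma on single transcript rows, where 27.1% of rows were called lower and 5.92% higher with prednisone after MI, the change was -2.73 for Tgfbr2-201 (SE 0.31, adjusted p = 0.000222) and -0.49 for Tgfbr2-202 (SE 0.19, adjusted p = 0.0645). After the length correction they were -2.27 and 0.18. Tgfbr2-201 was also lower with MI under prednisone, by -1.74 (SE 0.31, limma adjusted p = 0.0028), where 15.6% of rows were lower and 6.75% higher. Tgfbr2-201 made up 12.4%, 26.3% and 42.3% of *Tgfbr2* TPM in MI prednisone and 58.5% to 70.2% in the other 9 hearts (exact two-sided permutation p = 0.1 against MI vehicle, the smallest that 3 against 3 mice can give).

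Of the binding proteins, *Ltbp2* had the largest change of the 10 genes. Its product belongs to elastic microfibrils and, unlike the other 3, is not known to carry latent TGF-beta. The gene (chromosome 12, 84783212 to 84876532, minus strand) measured 1.60, 1.93 and 0.987 TPM in sham vehicle and 1.47, 0.711 and 1.39 TPM in sham prednisone. MI vehicle held 7.52, 26.3 and 16.0 TPM, and MI prednisone 6.85, 5.60 and 3.29 TPM. All infarcted hearts exceeded all sham hearts, and all MI prednisone hearts lay below all MI vehicle hearts. *Ltbp2* was also the 1 gene of the 10 called higher with MI under both treatments, by 2.68 under vehicle (SE 0.38, limma adjusted p = 0.00526) and 1.49 under prednisone (SE 0.38, adjusted p = 0.0213). Both stayed called after rescaling, at 2.30 (limma adjusted p = 0.0196) and 1.57 (0.0114). The prednisone effect after MI was -1.39 (SE 0.38, limma adjusted p = 0.0154) and, after rescaling, -0.97 (0.0658). It was not called without MI prednisone replicate 3 (-1.14, 0.058). In MI against sham under prednisone the call was lost on leaving out sham prednisone replicate 2 or 3 or MI prednisone replicate 1 or 2.

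The 300 bases around the start of *Ltbp2* are shown because it is the gene with the largest change. They run from 250 bases before to 50 after the RefSeq start (chr12:84876442-84876741, minus strand, GRCm38.p6), 5′ to 3′. Capitals mark matches on either strand to CAGAC, the short sequence that Smad proteins bind, which occurred 3 times here. Of 32851 mouse promoter windows of this length 49.6% held any match, and windows with 3 matches were not counted.
Ltbp2 promoter window: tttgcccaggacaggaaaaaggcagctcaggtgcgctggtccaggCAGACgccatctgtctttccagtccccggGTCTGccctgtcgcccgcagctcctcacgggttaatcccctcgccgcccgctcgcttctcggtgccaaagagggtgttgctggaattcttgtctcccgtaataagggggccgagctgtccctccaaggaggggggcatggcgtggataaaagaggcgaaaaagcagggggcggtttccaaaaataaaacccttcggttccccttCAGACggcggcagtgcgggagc

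RefSeq windows matched 8 of the 10 genes, 12 windows in all. None of the 12 held the full Smad box GTCTAGAC (0.213% of all windows) or the palindromic glucocorticoid response element (0.00913%). The AP-1 site TGACTCA (5.2%) occurred once, in the *Ltbp3* window, where it overlaps a CAGAC match. A match or its absence describes only these letters in this window.

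*Ltbp3*, whose product carries latent TGF-beta in bone and other tissues (chromosome 19, 5740904 to 5758532, plus strand), measured 8.95, 11.5 and 7.17 TPM in sham vehicle and 9.23, 7.94 and 9.91 TPM in sham prednisone. MI vehicle held 16.7, 21.7 and 23.1 TPM and MI prednisone 13.7, 14.5 and 8.75 TPM. MI vehicle lay above all other hearts, and MI prednisone replicate 3 lay inside the sham range. The MI change under vehicle was 1.08 (SE 0.21, limma adjusted p = 0.0136) and 0.65 after rescaling (0.0485). Prednisone after MI gave -0.71 (SE 0.21, limma adjusted p = 0.0237), -0.27 after rescaling (0.263) and -0.62 without MI vehicle replicate 3 (0.0632).

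*Ltbp4*, which supports elastic fibre assembly (chromosome 7, 27305136 to 27337692, minus strand), was the most abundant of the 10 in every heart. It measured 75.1, 98.5 and 72.9 TPM in sham vehicle and 86.6, 80.8 and 94.1 TPM in sham prednisone. MI vehicle held 112, 142 and 143 TPM, and MI prednisone 143, 117 and 102 TPM. The infarcted groups overlapped each other and both exceeded sham. Summed over transcripts, MI raised *Ltbp4* under vehicle by 0.69 (SE 0.16, limma adjusted p = 0.0216), a call lost after rescaling (0.23, adjusted p = 0.372) and without MI vehicle replicate 3 (0.63, 0.0558). Prednisone after MI gave -0.14 (95% interval -0.49 to 0.21, limma adjusted p = 0.498), or 0.32 after rescaling. Under prednisone MI gave 0.45 (SE 0.16, limma adjusted p = 0.0756), which was called after rescaling (0.54, 0.0308).

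That sum hid opposite movements of 2 models. Ltbp4-205, a full-length coding transcript of 5118 bases, held 101, 130 and 132 TPM in MI vehicle and 66.3, 54.2 and 52.9 TPM in MI prednisone. Ltbp4-208, a noncoding model of 550 bases near the 3′ end, held 7.04, 9.14 and 8.44 TPM in MI vehicle and 74.3, 59.7 and 47.4 TPM in MI prednisone. Sham hearts held 4.70 to 11.6 TPM of Ltbp4-208. Ltbp4-205 had risen with MI under vehicle by 0.79 (SE 0.15, limma adjusted p = 0.0294; 2.66% of rows), but by 0.33 and uncalled after rescaling (0.297). With prednisone after MI, Ltbp4-205 changed by -1.05 (SE 0.15, limma adjusted p = 0.000849) and Ltbp4-208 by 2.72 (SE 0.25, adjusted p = 7.9e-05), and both kept their calls after rescaling and after the length correction. Ltbp4-208 took 46.6% to 51.8% of *Ltbp4* TPM in MI prednisone and 5.42% to 15.5% elsewhere. Summing protein-coding models alone, an alternative chosen after the data were seen, made *Ltbp4* lower with prednisone after MI by -1.05 (limma adjusted p = 0.000587).

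All but 28 bases of Ltbp4-208 lie in exons of Ltbp4-205. Those 28 intron bases (chr7:27306943-27306970, minus strand, GENCODE M21 transcripts, GRCm38) are the letters that set it apart, and are printed in capitals, followed in lower case by the start of the exon, 5′ to 3′.
Ltbp4-208 start: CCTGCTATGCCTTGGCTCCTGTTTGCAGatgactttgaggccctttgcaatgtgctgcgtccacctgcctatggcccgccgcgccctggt

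*Ltbp1*, the founding member of the family and a main carrier of latent TGF-beta (chromosome 17, 75005568 to 75392512, plus strand), varied least. It measured 12.5, 11.7 and 9.28 TPM in sham vehicle and 11.3, 9.08 and 10.9 TPM in sham prednisone. MI vehicle held 11.9, 11.8 and 11.8 TPM, and MI prednisone 10.9, 9.58 and 8.70 TPM. The sham hearts overlapped both infarcted groups, and all 3 MI prednisone hearts lay below all 3 MI vehicle hearts, as 42.6% of all genes did. The MI change under vehicle was 0.09 (95% interval -0.21 to 0.39, limma adjusted p = 0.609) and turned to -0.33 after rescaling. Prednisone after MI gave -0.26 (95% interval -0.56 to 0.04, limma adjusted p = 0.144) and turned to 0.16 after rescaling.

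Behind the steady sum, 3 models of *Ltbp1* differed. The long form Ltbp1-201 held 4.93, 4.40 and 4.44 TPM in MI vehicle and 1.18, 1.00 and 2.66 TPM in MI prednisone. The short form Ltbp1-202, which starts at a second promoter, held 3.89, 3.34 and 4.05 TPM in MI vehicle and 3.43, 2.47 and 3.33 TPM in MI prednisone. Ltbp1-206, a retained-intron model of 3277 bases at the 3′ end, rose from 0.294, 0.0516 and 0.124 TPM to 4.49, 4.21 and 1.08 TPM. With prednisone after MI, limma gave -1.15 for Ltbp1-201 (SE 0.22, adjusted p = 0.00291), -0.23 for Ltbp1-202 (SE 0.17, adjusted p = 0.316) and 1.76 for Ltbp1-206 (SE 0.33, adjusted p = 0.00293). Ltbp1-201 became -0.51 after the length correction (limma adjusted p = 0.0873), and Ltbp1-206 2.20 (0.00198). With protein-coding models alone *Ltbp1* was lower with prednisone after MI by -0.79 (limma adjusted p = 0.00236).

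The sequences at the 2 starts of *Ltbp1* and at the retained intron of Ltbp1-206 locate these models. The RefSeq windows (GRCm38.p6, plus strand) span chr17:75005279-75005578, around the start of the long form, and chr17:75178531-75178830, just before the start of Ltbp1-202 at 75178911. Capitals mark CAGAC on either strand, with 1 match in the first window and 2 in the second. The third sequence holds in capitals the last 60 of the 863 intron bases that open Ltbp1-206 (chr17:75385013-75385072, GENCODE M21 transcripts, GRCm38), and in lower case the exon that follows. All are 5′ to 3′.
Ltbp1 long form window: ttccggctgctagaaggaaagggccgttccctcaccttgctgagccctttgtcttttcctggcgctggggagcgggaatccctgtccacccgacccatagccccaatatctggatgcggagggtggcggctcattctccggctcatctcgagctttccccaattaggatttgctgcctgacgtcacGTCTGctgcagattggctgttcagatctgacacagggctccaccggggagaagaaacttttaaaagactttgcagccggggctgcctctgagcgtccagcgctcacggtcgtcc
Ltbp1 short form window: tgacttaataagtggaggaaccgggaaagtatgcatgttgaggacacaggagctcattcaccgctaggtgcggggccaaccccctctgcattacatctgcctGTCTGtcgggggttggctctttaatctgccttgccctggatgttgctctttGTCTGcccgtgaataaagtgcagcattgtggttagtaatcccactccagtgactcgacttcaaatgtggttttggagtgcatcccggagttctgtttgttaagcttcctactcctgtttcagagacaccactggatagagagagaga
Ltbp1-206 intron end: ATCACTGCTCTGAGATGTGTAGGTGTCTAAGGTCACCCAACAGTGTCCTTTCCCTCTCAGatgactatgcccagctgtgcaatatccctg

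**Figure D3:**
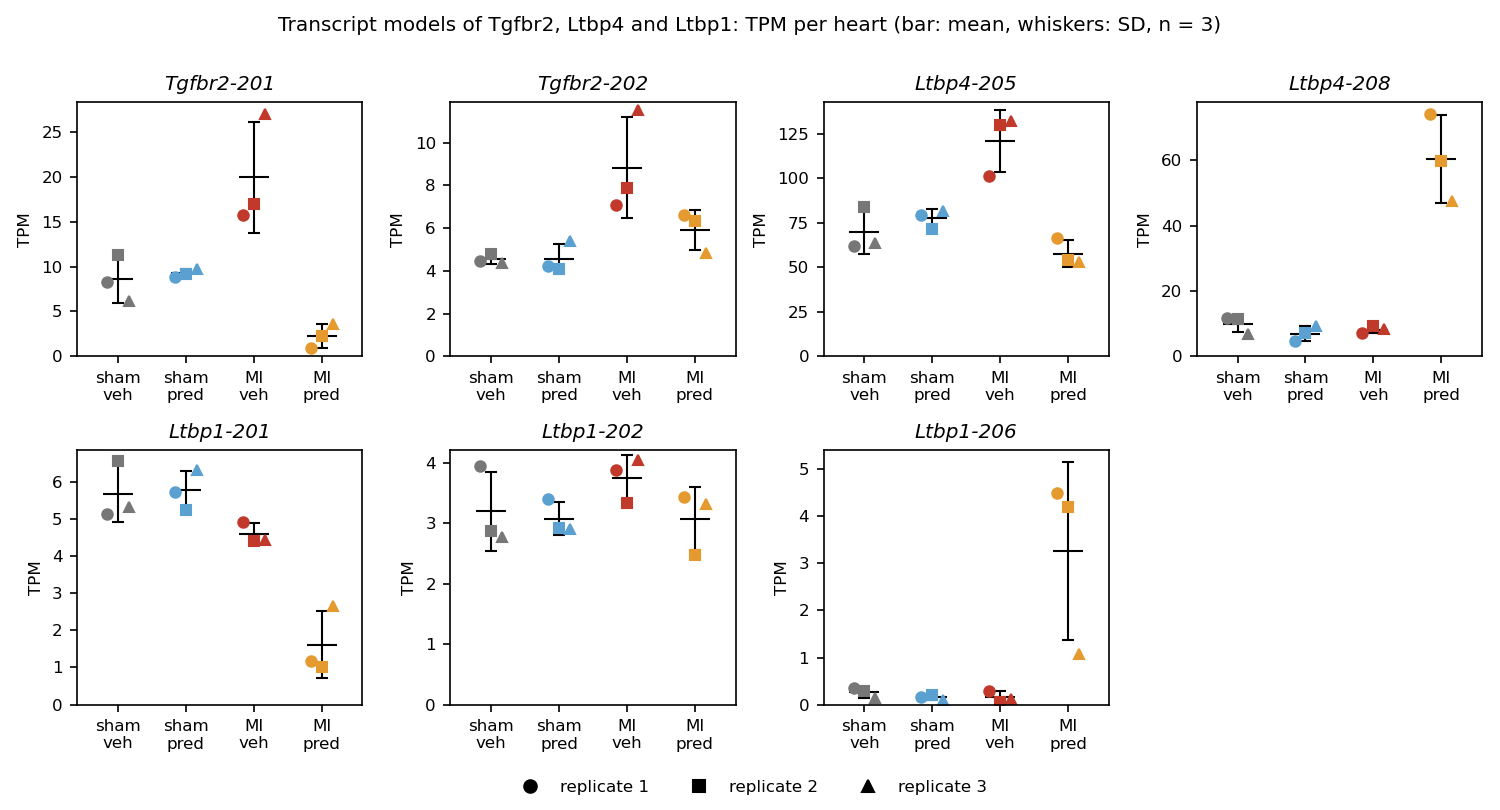
TPM of 7 transcript models of *Tgfbr2*, *Ltbp4* and *Ltbp1* in each heart, by group, on linear y axes that start at 0; symbols are mice, the bar is the mean and whiskers are the SD of 3 mice. In MI prednisone Ltbp4-208 and Ltbp1-206 were above, and Tgfbr2-201, Ltbp4-205 and Ltbp1-201 below, MI vehicle in all 3 mice.

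The same libraries held more TPM at the 3′ ends of other genes. Over 2242 genes other than the 10, the mean share of a gene's TPM on short models in its 3′ 50% was 23.5% to 28.9% in MI prednisone and 16.1% to 17.6% in the other 9 libraries. On short models in the 5′ 50% of 1535 genes it was 11.2% to 12.8% in MI prednisone and 16.0% to 17.4% elsewhere. A library's deviation from sham vehicle had a Spearman correlation with transcript length, taken over genes that are not independent, of -0.27 to -0.41 in MI prednisone and -0.12 to 0.24 elsewhere. These values move with the transcript results above, and their part in them was not tested.

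**Figure D4:**
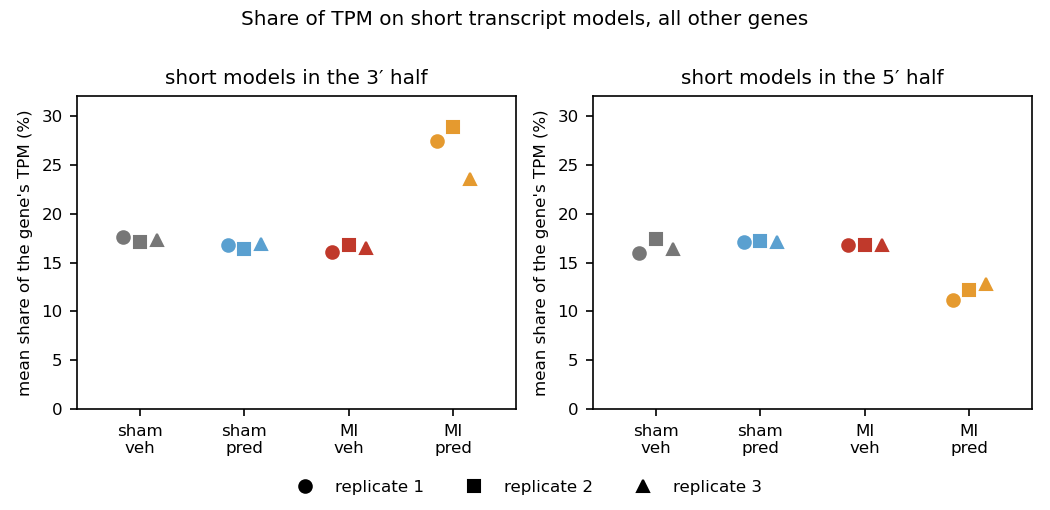
Mean share of a gene's TPM (percent, y axis from 0) carried by short transcript models in the 3′ 50% (left) or 5′ 50% (right) of the gene, per library, over genes other than the 10. The 3 MI prednisone libraries sit at 23.5% to 28.9% on the left and at 11.2% to 12.8% on the right, apart from the other 9.

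Shares within a family do not move with the total taken by other RNAs. *Tgfbr2* made up 58.6%, 61.7% and 61.1% of receptor TPM in MI vehicle and 48.4% to 53.0% in the other 9 hearts. *Tgfbr3* made up 20.2% to 27.6% in MI vehicle and 29.8% to 36.8% elsewhere. The receptor shares of MI prednisone overlapped those of sham prednisone for all 3 receptors. The *Tgfbr3* share lay below the 34.5% to 36.8% of sham vehicle in both prednisone groups, at 29.8% to 34.4% with MI and 31.8% to 33.9% with sham. The *Tgfb2* share of ligand TPM was likewise lower in sham prednisone (8.52% to 10.2%) than in sham vehicle (11.4% to 13.1%), without overlap. The receptor sum was 14.9 to 16.2 TPM against 21.7 to 30.8 TPM in sham hearts and 39.0 to 63.0 TPM in MI vehicle. Among the binding proteins *Ltbp2* took 5.07% to 13.0% in MI vehicle, 2.68% to 3.91% in MI prednisone and 0.722% to 1.63% in sham. The total behind these shares includes the noncoding model Ltbp4-208. It held 47.4 to 74.3 TPM of a binding protein sum of 123 to 175 TPM in MI prednisone, and 7.04 to 9.14 TPM in MI vehicle. The lower *Ltbp2* share in MI prednisone than in MI vehicle thus depends in part on that model, and shares without it are not given. *Tgfb1* took the largest ligand share in every heart, from 45.4% to 67.2%, with overlap between MI vehicle and sham vehicle. Where single groups without overlap were tested against each other, the exact two-sided permutation p was 0.1. That is the smallest 3 against 3 mice can give, so none could pass 0.05. MI prednisone against sham vehicle, and 1 group against several together, were not tested.

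The prednisone effect differed between infarcted and sham hearts for 4 of the 10 genes in the interaction test, where 20.7% of all genes were called lower and 0.54% higher. The differences were -1.75 for *Tgfbr2* (SE 0.27, limma adjusted p = 0.00601), -1.47 for *Tgfbr1* (SE 0.29, adjusted p = 0.0101), -1.04 for *Tgfb3* (SE 0.27, adjusted p = 0.0219) and -0.88 for *Tgfbr3* (SE 0.24, adjusted p = 0.0281). All 3 receptors were thus among the 4, and no binding protein was when its transcripts were summed. With the most abundant transcript 6 of the 10 genes were called lower, beside 17.8% of all genes. With protein-coding models alone 6 were too, beside 30.5%. The coding models Ltbp4-205 (-1.21, limma adjusted p = 0.00551) and Ltbp1-201 (-1.17, 0.0247) were called lower, but not after rescaling or the length correction. Among transcript rows 15.8% were called lower and 2.87% higher in this test, Tgfbr2-201 by -2.86 and Ltbp4-208 by 3.20. After rescaling, where 4.41% of all genes were lower, *Tgfbr2* (-1.23) and *Tgfbr1* (-1.02) remained called, and *Tgfb3* (-0.55, limma adjusted p = 0.255) and *Tgfbr3* (-0.40, 0.189) did not. After the length correction *Tgfbr2* was still called (-0.98, limma adjusted p = 0.0154) and *Tgfbr1* was not (-0.73, 0.0542). *Tgfbr2* and *Tgfbr1* kept their calls on leaving out any 1 mouse, *Tgfb3* lost its call in 4 of 12 such fits and *Tgfbr3* in 7.

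**Figure D5:**
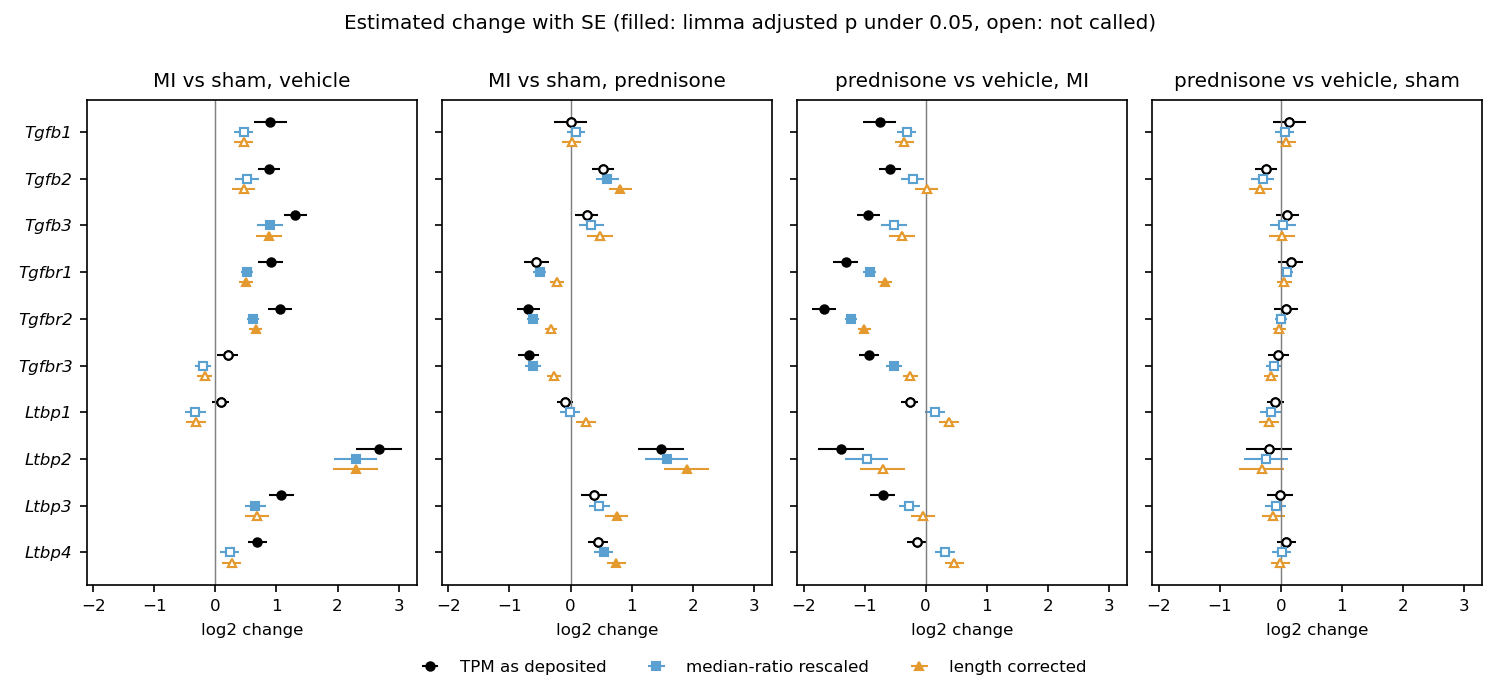
Log2 change (x axis, with SE) of the 10 genes in 4 comparisons for TPM as deposited, after median-ratio rescaling and after the transcript length correction; filled symbols have a limma adjusted p under 0.05. *Tgfbr1* and *Tgfbr2* kept their calls with MI under vehicle and with prednisone after MI in all 3 scalings. In prednisone against vehicle after MI *Ltbp1* and *Ltbp4* changed sign between scalings, and so did *Tgfb2*, from a called -0.59 to 0.017 after the length correction.

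Other genes of the pathway were counted in 6 lists, beside the shares of all genes. With MI under vehicle 15.1% of all genes were higher (median 0.39), or 3.26% after rescaling and 3.04% after the length correction. With prednisone after MI 34.9% were lower (median -0.41), or 13.8% and 7.69%. With MI under prednisone 2.73% were higher and 14.1% lower. Of 14 genes that TGF-beta is known to induce, 13 rose with MI under vehicle (median 1.57), among them *Postn*, for the matrix protein periostin, by 2.30 (SE 0.33, limma adjusted p = 0.00532) and *Lox*, for a collagen crosslinking enzyme, by 2.17 (SE 0.33, adjusted p = 0.00675). With prednisone after MI 12 of the 14 fell (median -1.14), including *Fn1*, fibronectin, by -1.74 (SE 0.33, limma adjusted p = 0.00314). After rescaling the counts were 8 and 8, and without MI vehicle replicate 3 they were 9 and 8, beside 6.95% and 28.0% of all genes. Under prednisone 2 of 14 were higher with MI, *Postn* by 1.87 and *Ctgf*, a matricellular protein gene, by 1.24.

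Genes whose products release latent TGF-beta rose in 6 of 13 cases with MI under vehicle and fell in 7 of 13 with prednisone after MI. *Thbs1* (thrombospondin 1) gave 2.16 and -2.03 and *Mmp14*, a membrane-bound matrix protease, 1.32 and -1.21. Under prednisone 3 of 13 were lower with MI, *Itgb6*, the integrin beta 6 chain, by -0.83, the propeptide convertase *Furin* by -0.65 and, named after its value was seen, *Itgb1* by -0.57. Rescaling left 2 rises and 2 falls in the first pair of comparisons, and those 2 falls of 13 are near the 13.8% of all genes.

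Co-receptors and matrix proteins that bind TGF-beta rose in 8 of 9 cases with MI under vehicle and fell in 5 of 9 with prednisone after MI. The proteoglycan genes *Bgn* (biglycan) and *Fmod* (fibromodulin) rose by 1.99 and 1.82 with MI, and *Fmod* and *Nrp1*, a receptor that also binds semaphorins, fell by -1.89 and -1.22 with prednisone. The other 3 that fell, named after their values were seen, were *Bgn* (-1.22), *Dcn* (-1.20), which is also one of the fibroblast markers, and *Cd109* (-0.95). *Nrp1* was also lower with MI under prednisone (-0.91), where *Emilin1*, whose product restrains the processing of TGF-beta, was higher (0.83, but -0.15 over protein-coding models alone). Rescaling left 2 rises and 3 falls.

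Smads and their regulators rose in 8 of 15 cases with MI under vehicle and fell in 11 of 15 with prednisone after MI. The Smad repressor genes *Tgif1* and *Skil* rose by 1.11 and 0.81, and *Skil* and the ubiquitin ligase gene *Smurf2* fell by -1.25 and -1.09 with prednisone. Under prednisone 5 of 15 were lower with MI, *Smurf2* by -0.97 and *Smurf1* by -0.66, and, named after their values were seen, *Smad2* (-0.63), *Smad4* (-0.63) and *Zfyve9* (-0.40). Rescaling left 2 rises with MI and 9 falls with prednisone, and the length correction 2 and 4.

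Other receptors of the superfamily rose in 1 of 6 cases with MI under vehicle, near the share of all genes, *Acvr1* by 0.60, and fell in 5 of 6 with prednisone after MI, the bone morphogenetic protein receptors *Bmpr1a* and *Bmpr2* by -1.37 and -1.01. Both of those were also lower with MI under prednisone, by -1.16 and -0.79. Named after their values were seen, *Acvr1* (-0.77), *Acvr1b* (-0.74) and *Acvr2a* (-0.59) also fell with prednisone, and *Acvr2a* was lower with MI under prednisone (-0.66). Of the other ligands 4 of 8 rose with MI, *Gdf15*, a stress cytokine, by 2.59 and *Bmp6*, an iron-regulating ligand, by 1.09, and 3 of 8 fell with prednisone, near the share of all genes, *Bmp6* by -1.12. Named likewise, *Inhbb* (0.83) and *Inhba* (0.74) rose with MI, and *Inhba* (-1.24) and *Gdf10* (-0.91) fell with prednisone. *Gdf15* was higher with MI under prednisone as well, by 1.97. No gene of the 6 lists was called with prednisone in sham hearts, and each of the limma adjusted p-values behind the named changes was under 0.05.

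Cell type markers moved beside these genes. The 6 fibroblast markers were all higher with MI under vehicle and summed to 757 to 834 TPM in MI vehicle, 280 to 491 TPM in MI prednisone and 367 to 477 TPM in sham. The 6 macrophage markers were all higher too, with sums of 236 to 361 TPM, 130 to 251 TPM and 126 to 180 TPM. Of all genes 15.1% were called higher in that comparison. Marker calls are on TPM as deposited, and rescaled counts are not given. With prednisone after MI 5 of 6 fibroblast and 4 of 6 macrophage markers were lower, as were 3 of 4 epicardial markers (median -1.56). There 34.9% of all genes were called lower and 2.5% higher. In the same comparison 3 of 4 atrial muscle markers were higher (median 2.01), with sums of 4335 to 6173 TPM in MI prednisone, 2802 to 4106 TPM in MI vehicle and 845 to 2686 TPM in sham. With MI under vehicle only 1 of those 4 was called higher and their median change was -0.78, so the sums do not describe every atrial marker. With prednisone after MI cardiomyocyte markers were higher in 3 of 6 cases, with sums of 30926 to 34009 TPM in MI prednisone and 20924 to 25958 TPM in MI vehicle. With MI 2 of the 6 were lower under vehicle (0.904% of all genes) and 2 of the 6 under prednisone (14.1%). Endothelial markers summed to 216 to 299 TPM in MI vehicle and 165 to 221 TPM in the other groups. No marker of the fibroblast, macrophage or endothelial lists was at 0 in any heart. The part of these markers in the results was not tested.

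The genes whose levels followed each of the 10 most closely were searched among 8108 genes over the 12 hearts, after rescaling, as a description in which group differences are shared. *Ltbp2* was closest to *Sod3* (r = 0.99), *Sfrp2* (0.97) and *Mfap5* (0.97), and *Ltbp3* to *Cd302* (0.98), *Mmp23* (0.97) and *Mgp* (0.96). *Tgfb3* was closest to *Itgbl1* (0.97), *Emp1* (0.97) and *Fstl1* (0.96), *Tgfb2* to *Cygb* (0.93), and *Tgfb1* to *Marcksl1* (0.96), *Cdk1* (0.96) and *Icam1* (0.96). *Tgfbr1* and *Tgfbr2* had *Ddr1*, a collagen receptor gene, in common among their closest 3 (0.95 and 0.98). *Tgfbr3* was closest to *Fbxo21* (0.98), *Ltbp4* to *Selenom* (0.97) and *Ltbp1* to *March2* (0.93). Among the 10 themselves *Tgfbr1* with *Tgfbr2* (0.93) and *Ltbp2* with *Ltbp3* (0.94) were the closest pairs, and *Tgfbr3* with *Ltbp4* the most opposed (-0.72).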

How the data were processed

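RNA from 12 hearts was sequenced as stranded mRNA libraries from Trizol and column-purified RNA, per the labels' protocols. The authors deposited TPM for 105129 transcript rows, with no counts, so read depth is unknown. Trimmomatic, HISAT2, kallisto and the build mm10 are named in the submitters' processing notes, without versions or roles. Transcript rows were summed by gene symbol. Genes at 1 TPM or more in at least 3 samples were kept, and log2(TPM + 1) values, which understate changes of low genes, went into linear models in limma 3.58.1, run under R 4.3.3 (intensity trend, 4 group means, Benjamini-Hochberg adjustment, threshold 0.05), in a script tested on simulated data. P-values measure the spread between mice. Coordinates are from GENCODE M21 (98.7% of rows matched without regard to version), starts from RefSeq. The 10 genes and all gene lists were chosen with earlier results of these data known.

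Named pathway genes are, per list and comparison, up to 2 of the largest called rises and falls with a mean of at least 2 TPM, and the 3 closest genes had a mean of at least 5 TPM. A gene that this rule names is not reported here. Transcript models with a mean of at least 0.5 TPM were considered, and those whose values are given were chosen after their values were seen. A model was short under 50% of the longest model's length. Alternatives were median-ratio rescaling, a pseudocount of 0.1, no filter or one at 5 TPM, no trend, the most abundant transcript, the compared groups alone, the replicate number as a block, leaving out globin rows and mitochondrial rows with their nuclear copies, and leaving out each mouse. Chosen after the data were seen were a loess correction for transcript length (span 0.5), centring of each library on its median deviation, and protein-coding rows alone.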

Additional observations from a re-analysis of the deposited data

Results flagged for a closer look

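Each of the following was singled out because the effect of prednisone differed between infarcted and sham hearts in limma's interaction test at an adjusted p under 0.05. Values are the effect in MI minus that in sham, on the log2 scale. Among the genes, of which 20.7% of all were called lower and 0.54% higher, they were -1.75 for *Tgfbr2*, -1.47 for *Tgfbr1*, -1.04 for *Tgfb3* and -0.88 for *Tgfbr3*. After median-ratio rescaling *Tgfbr2* and *Tgfbr1* alone stayed called, and after the length correction *Tgfbr2* alone. Among the transcript models, of which 15.8% of all rows were called lower and 2.87% higher, they were -2.86 for Tgfbr2-201, -1.21 for Ltbp4-205, -1.17 for Ltbp1-201, -1.16 for Tgfbr1-201, -1.04 for Tgfb3-201 and -0.81 for Tgfbr3-201. The models Ltbp4-208 and Ltbp1-206 went the other way, by 3.20 and 1.88. After median-ratio rescaling and after the length correction Tgfbr2-201 (-2.38 and -2.32), Ltbp4-208 (3.69 and 3.44) and Ltbp1-206 (2.02 and 2.40) stayed called. Ltbp1-201 (-0.75 and -0.45) and Ltbp4-205 (-0.67 and -0.55) did not. For Tgfbr1-201, Tgfb3-201 and Tgfbr3-201 these values are not given.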

How the results depend on the processing

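Counts of the 10 genes called moved with the scaling and with the mice included. For MI against sham under vehicle, 8 higher became 5 with median-ratio rescaling, the most abundant transcript or centring, 4 with the length correction and 0 with the compared groups alone, and 2 to 8 on leaving out 1 mouse, where only *Tgfb3* and *Ltbp2* were called without sham vehicle replicate 1 or 3. For MI against sham under prednisone, 1 higher became 3 with rescaling or centring, 2 with the pseudocount of 0.1 or the compared groups alone, 4 with the length correction, 0 without the filter, and 0 to 2 on leaving out 1 mouse. There the 2 lower became 3 with rescaling, the most abundant transcript, the compared groups alone, the removal of mitochondrial and globin rows, centring or protein-coding rows, 1 without the filter or with the replicate block, 0 with the length correction, and 0 to 1 on leaving out 1 mouse. For prednisone against vehicle after MI, 8 lower became 3 with rescaling or centring, 2 with the length correction or the compared groups alone, 10 with the most abundant transcript or protein-coding rows, and 5 to 8 on leaving out 1 mouse. The 4 lower in the interaction became 2 with rescaling or centring, 1 with the length correction, 6 with the most abundant transcript or protein-coding rows, and 2 to 6 on leaving out 1 mouse. The interaction needs all 4 groups and was not run with fewer. The causes were not tested.

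Signs turned only where a change was uncalled, except *Tgfb2* with prednisone after MI, which was 0.017 with the length correction, and *Emilin1* with MI under prednisone, which was -0.15 with the most abundant transcript or protein-coding rows. With MI under vehicle, in the order rescaling, removal of mitochondrial and globin rows, length correction and centring, *Tgfbr3* was -0.21, -0.017, -0.18 and -0.18, and *Ltbp1* -0.33, -0.14, -0.32 and -0.29, besides -0.25 for its most abundant transcript and a range of -0.029 (without sham vehicle replicate 3) to 0.17 on leaving out 1 mouse. With MI under prednisone, *Ltbp4* was -0.42 for its most abundant transcript and -0.43 over protein-coding rows, *Ltbp1* 0.25 with the length correction, and *Tgfb1* -0.077 without mitochondrial and globin rows and -0.051 to 0.10 on leaving out 1 mouse. With prednisone after MI, in the order rescaling, length correction and centring, *Ltbp1* was 0.16, 0.38 and 0.13 and *Ltbp4* 0.32, 0.47 and 0.25. Ltbp1-202 was 0.13 with rescaling and 0.34 with the length correction, where Tgfbr2-202 was 0.18.

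Replicate numbers belong to different animals. Same-numbered mice did not deviate together (mean r between -0.37 and 0.00 over 4 comparisons), so the numbers give no pairing. With the replicate block 7 genes were higher with MI under vehicle, 7 lower with prednisone after MI and 4 lower in the interaction.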
